A study of Danio rerio with 93 samples.

Results

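Zebrafish cytochrome P450 (CYP) genes outside family 1 were taken as the rows of the count table whose symbol starts with cyp and a digit, leaving out family 1 (subfamilies a to d) and cyp51. A total of 71 rows matched, and the 68 with at least 100 estimated counts over the 93 embryos make up the set, of 19913 genes in the table. The 3 rows under the minimum were CYP19A1 (54 counts), cyp21a2 (41) and cyp2k22 (39), and the members just over it were cyp2k6 (134), cyp2x8 (137), cyp2k20 (204) and CYP11A1 (ENSDARG00000002347, 231). Symbols are written as the gene table gives them, and the Ensembl identifier is added where several rows share a symbol. The rule used the symbol and the total count, and no fold change or p-value. It was set with earlier results of these data known.

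P450 enzymes are heme proteins of the endoplasmic reticulum or the mitochondrion that insert an oxygen atom into small lipophilic molecules, with electrons supplied by P450 reductase or by ferredoxin. Some clear a single endogenous signal: the CYP26 enzymes break down retinoic acid and so shape its gradients in the hindbrain and limb buds, CYP24A1 breaks down active vitamin D, and others make bile acids and steroid hormones. Others, above all in families CYP2 and CYP3, accept many foreign compounds, and fish carry expanded, tandemly arranged copies of them. By known or inferred substrate the 68 members comprised 3 enzymes of retinoic acid clearance, 1 retinoid desaturase, 3 vitamin D enzymes, 5 of steroid hormone synthesis, 14 of sterol and bile acid metabolism, 12 of fatty acid and eicosanoid metabolism, 24 other genes of family 2, 5 of family 3 and the orphan CYP20A1. These roles come mostly from human and mouse enzymes.

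The data are RNA-seq of single whole embryos of the SPF 5-D line at 48 hours post fertilization (hpf), whose chorions had been removed, each exposed alone in a well to 1 of 5 smoke dyes in 0.64% DMSO. The exposed embryos, 3 in each treatment group and 75 in all, received Disperse Blue 14 (133, 171, 209, 261.5 or 314 μM), Solvent Violet 47 (12, 17.5, 23, 31.5 or 40 μM), Disperse Red 9 (10, 25, 35, 45 or 55 μM), Solvent Yellow 33 (7.5 or 9 μM, 10.5 μM, 12 or 13.5 μM) or Solvent Red 169 (1 or 5 μM, 11.2 μM, 35.6 or 50 μM). The controls, kept in 0.64% DMSO without dye, were 2 embryos for Solvent Violet 47 and 4 for each of the other dyes. Disperse Red 9, Solvent Red 169 and Disperse Blue 14 are anthraquinones with alkylamino groups, and Solvent Yellow 33 is a quinoline-indandione. Each embryo is its own animal and library. The concentrations differ between dyes, so values of different dyes are set side by side without a test, and the 5 groups of a dye share its control embryos.

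Libraries held 9171265 to 48188027 counts, with a median of 32290121 and a second lowest of 22423359. The shallowest, replicate 3 at 12 μM Solvent Yellow 33, stood apart: its median rank correlation with other embryos was 0.690, and 32 of the 68 members (47.1%) were at 0 in it. The study's methods state that a 12 μM Solvent Yellow 33 embryo was removed, without naming it. Replicate 2 of the Solvent Red 169 controls (0.868), replicate 3 at 25 μM Disperse Red 9 (0.887) and replicate 2 of the Disperse Blue 14 controls (0.890) were next. Replicates 1 and 2 of the Solvent Red 169 controls also differed from replicates 3 and 4 in several members. CYP27C1 had 19.1 and 28.8 CPM (counts relative to the library's total, here adjusted with TMM factors) in replicates 1 and 2, and 3.05 and 4.70 CPM in replicates 3 and 4. CYP4V2 (ENSDARG00000062132) had 2.18 and 2.12 CPM, and 19.9 and 15.2 CPM, in the same embryos. Fold changes with Solvent Red 169 are given below also without control replicates 1 and 2 together, an alternative added after seeing the data, and counts of DEGs without each of the other libraries. Fewer cells of a type and less RNA per cell cannot be told apart in whole embryos.

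In the 18 control embryos the 10 members with the highest mean CPM were cyp2y3 (108 ± 19.5 CPM, SD), cyp2aa8 (89.9 ± 18.9), CYP26B1 (86.6 ± 18.6), cyp3c1 (60.4 ± 14.9), cyp2ad3 (58.5 ± 14.3), cyp2aa9 (51.7 ± 19.8), CYP20A1 (35.3 ± 8.94), cyp2aa4 (32.4 ± 6.18), cyp2aa3 (32.3 ± 7.38) and CYP26C1 (31.2 ± 11.4). CPM is not divided by gene length, so these levels give no order of abundance between genes. The spread between controls ran from 11.6% of the mean for cyp2p10 to 132.9% for cyp4f3. Few counts lay behind 6 members, which passed the filter on low counts in no dye: CYP11A1 (ENSDARG00000002347), cyp2x8, cyp4f3, cyp17a2, cyp2k6 and cyp2k20, whose highest level in any embryo was 0.60 CPM. The other 62 were tested in each dye, except that CYP7A1 and cyp2k21 were not tested for Solvent Yellow 33.

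A member counted as a differentially expressed gene (DEG) against the control of its dye where expression differed by more than 1.5-fold and the adjusted p (Benjamini-Hochberg) was under 0.05 in edgeR's quasi-likelihood F test with all 6 groups of the dye in a single fit and adjustment over all genes tested. All adjusted p-values are from this test unless DESeq2 is named. Where no other fit is named, DEG refers to edgeR with all libraries. The share of all genes whose exposed and control embryos did not overlap was not counted, so statements on overlap below only describe single genes. With all libraries in the fits there were 28 calls (20 up, 8 down) in 8 of the 25 comparisons. Of the 62 members, 16 were DEGs at least once and 8 were DEGs with more than 1 dye. These are 25.8% and 12.9% of the tested members, beside 33.9% and 7.35% of the 18214 genes tested with any dye. These calls came from 1540 tests of a member in a comparison.

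With all libraries in the fits, Disperse Blue 14 and Solvent Violet 47 at their highest concentrations gave most of the calls. Without replicate 3 at 12 μM, 13 members were DEGs with Solvent Yellow 33 (12.8% of all genes), and 1 (3.01%) with that embryo kept. The order of dyes therefore depends on that embryo. With 314 μM Disperse Blue 14, 9 members (7 up, 2 down; 14.5%) were DEGs, beside 15.7% of all genes, and at 261.5 μM 3 members (3 up, 0 down; 4.84%), beside 1.07%. At 171 μM 1 member was a DEG (1 up, 0 down; 1.61%), beside 0.766% of all genes. At 133 and 209 μM no member was a DEG by edgeR, where 0.101% and 0.134% of all genes were. There 11 and 9 members had an unadjusted p under 0.05 and DESeq2 called 1 and 4. The share of all genes at an unadjusted p under 0.05 was not counted, here or below, so these counts have no background beside them. Shares of all genes called by DESeq2 at any concentration of a dye are given at the end. DESeq2 counts for single concentrations and for role groups, here and below, have no such share beside them. With 40 μM Solvent Violet 47, 9 members (7 up, 2 down; 14.5%) were DEGs, beside 15% of all genes, and at 31.5 μM 1 member (0 up, 1 down; 1.61%), beside 6.26%. With both dyes the share of members at the highest concentration was near that of all genes, of which 7.66% were up and 8% down with Disperse Blue 14 and 6.05% up and 8.91% down with Solvent Violet 47. The median log2 fold change of the members was 0.06 at 314 μM and −0.08 at 40 μM, beside −0.01 and 0.04 over all genes. Single libraries decided many of these calls. The count at 314 μM Disperse Blue 14 was 0 without replicate 3 (0.436% of all genes), 5 without control replicate 2 (5.55%) and 13 without control replicate 1 (22.4%). At 171 and 261.5 μM, 0 members were DEGs without control replicate 2, 3 or 4. In those fits 5.71%, 24.3% and 17.3% of all genes were called at any concentration of the dye, and the shares at 171 and 261.5 μM alone are not given. For Solvent Violet 47 at 40 μM only cyp2n13 was a DEG without control replicate 3 or 4, beside 6.17% and 4.39% of all genes.

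For Disperse Red 9, 3 members (2 up, 1 down; 4.84%) were DEGs at 45 μM, beside 1.41% of all genes. At 10, 25, 35 and 55 μM edgeR called 0 members, beside 0%, 0%, 0.0951% and 0.683% of all genes. There 5, 11, 7 and 11 members had an unadjusted p under 0.05, and DESeq2 called 0, 1, 1 and 6. Without any 1 of the 4 controls no member was a DEG at any concentration. Without control replicates 1 to 4 in turn, 0.69%, 0.359%, 0.224% and 0.7% of all genes were. Without replicate 3 at 25 μM, 5 members (3 up, 2 down) were DEGs at 45 μM and 3 (2 up, 1 down) at 55 μM, beside 4.52% and 2.47% of all genes.

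For Solvent Red 169, 1 member was a DEG at 1 μM (0 up, 1 down; 1.61%), beside 3.73% of all genes. At 5, 11.2, 35.6 and 50 μM edgeR called 0 members, beside 6.26%, 0%, 0% and 3.25% of all genes. There 8, 13, 9 and 10 members had an unadjusted p under 0.05 and DESeq2 called 4, 2, 2 and 2. Without control replicate 1, without control replicate 2, or without both, edgeR called no member at any concentration, beside 0.675%, 2.65% and 0.00559% of all genes. Without control replicate 3 it called 8, 8, 8, 9 and 6 members from 1 to 50 μM, beside 28.4%, 28.1%, 21.6%, 22.3% and 26.6% of all genes, and without control replicate 4 it called 5, 6, 0, 0 and 2, beside 16.1%, 14.9%, 0%, 0% and 7.34% of all genes.

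For Solvent Yellow 33, 1 member was a DEG at 12 μM (0 up, 1 down; 1.67%), beside 1.08% of all genes. At the other 4 concentrations, from 7.5 to 13.5 μM, edgeR called 0 members, beside 0.182%, 0.671%, 1.08% and 2.5% of all genes. There 2, 4, 7 and 12 members had an unadjusted p under 0.05 and DESeq2 called 1, 2, 3 and 4. Without replicate 3 at 12 μM, the embryo described above, the counts from 7.5 to 13.5 μM were 3, 4, 5, 4 and 11 members, beside 1.66%, 4.18%, 5.51%, 6.38% and 8.92% of all genes, and 13 members were DEGs at least once. For Solvent Violet 47 at 12, 17.5 and 23 μM edgeR called 0 members and 0% of all genes, 0, 3 and 6 members had an unadjusted p under 0.05, and DESeq2 called none.

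**Figure D1:**
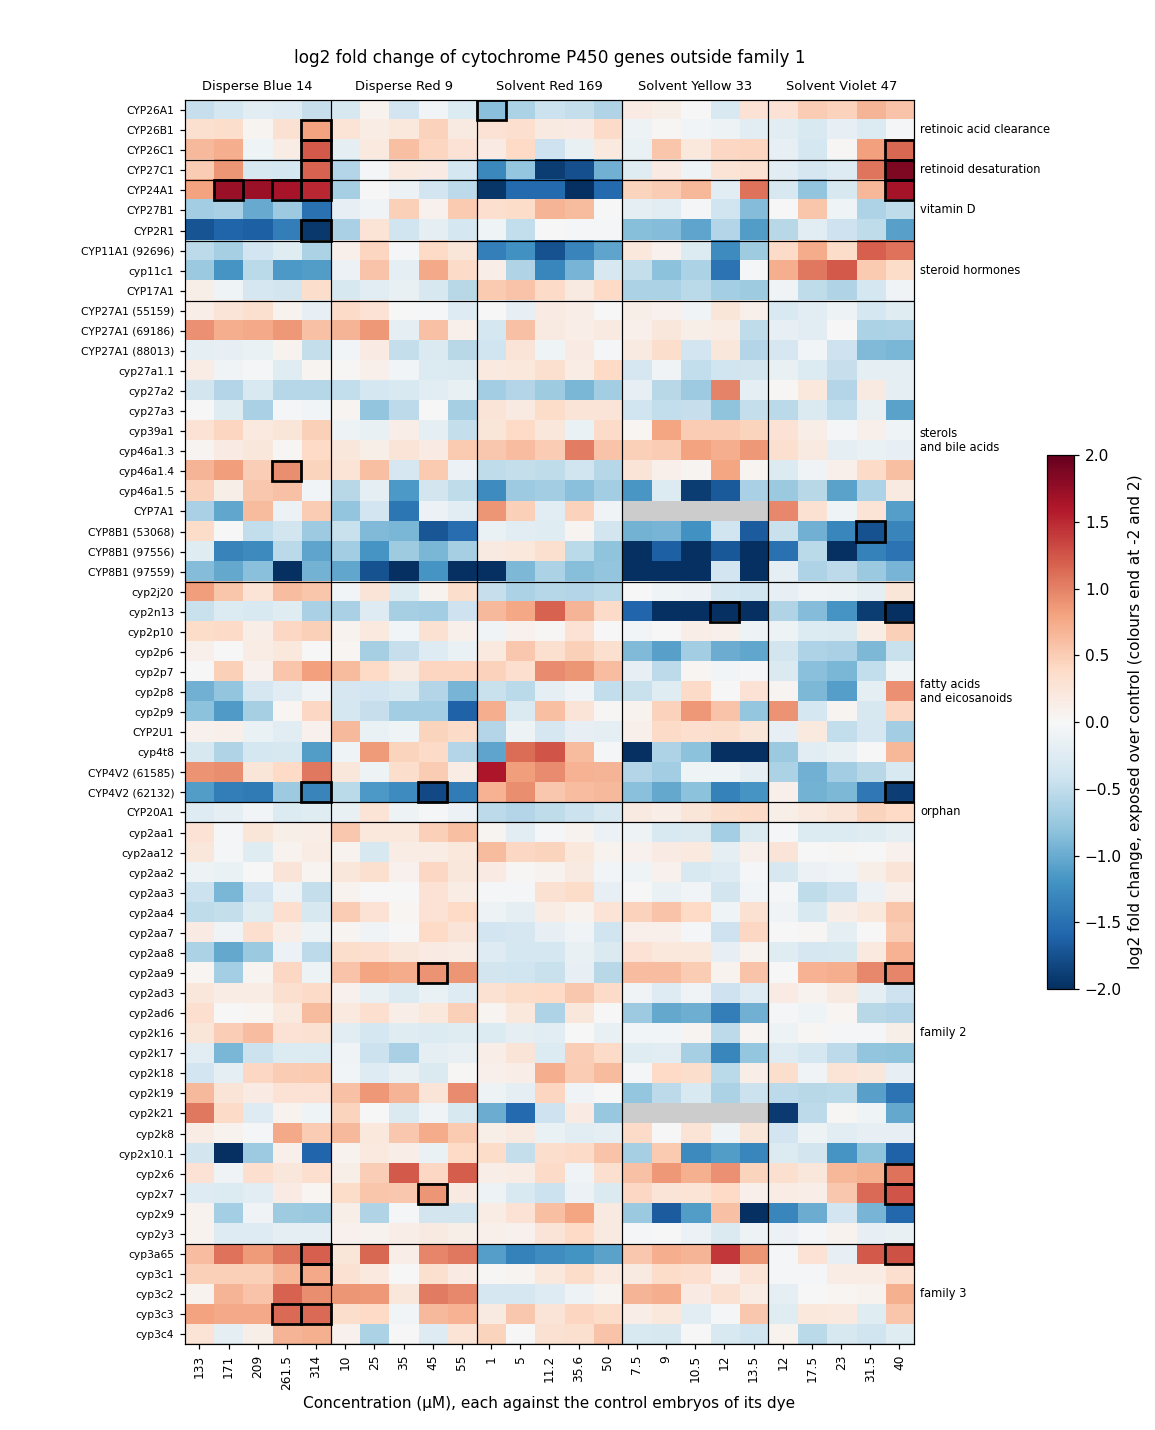
Fitted log2 fold change of each of the 62 tested members (rows, grouped by role) in each of the 25 treatment groups (columns, concentration in μM), exposed over control of the same dye. Black outlines mark the 28 DEG calls of the fits with all libraries, grey cells were not tested and colours end at −2 and 2. The outlined cells lie mostly in the 314 μM Disperse Blue 14 and 40 μM Solvent Violet 47 columns.

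**Figure D2:**
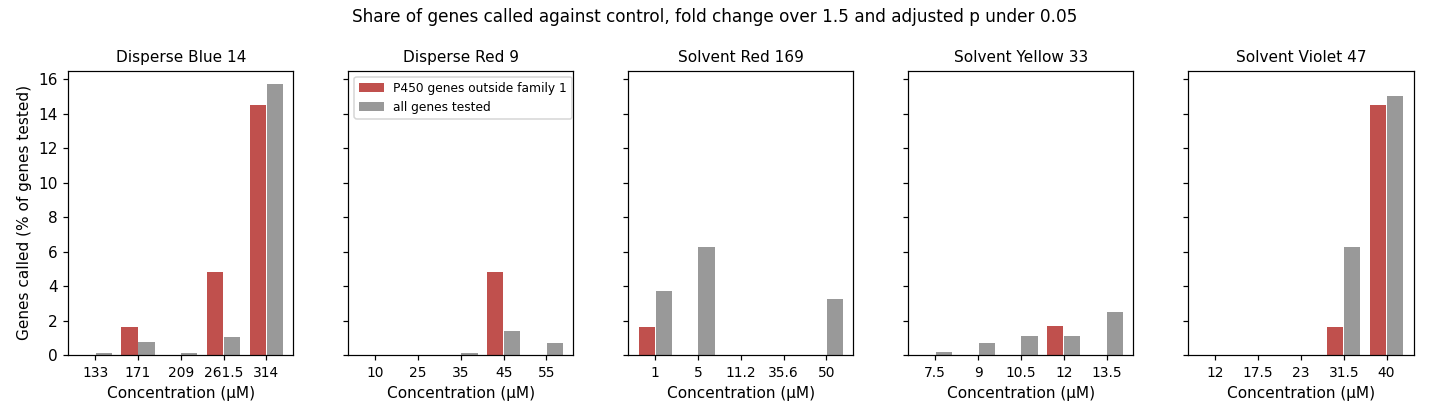
Percentage of tested genes that were DEGs against control at each concentration in the fits with all libraries, for the P450 members (red) and for all genes tested (grey). At 314 μM Disperse Blue 14 the bars stand at 14.5% and 15.7%, and at 40 μM Solvent Violet 47 at 14.5% and 15%.

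Each of the 3 retinoic acid hydroxylases and the retinoid desaturase was a DEG in at least 1 comparison, as were 33.9% of all genes, and the call of CYP26A1 rests on the uneven Solvent Red 169 controls. CYP26B1 and CYP26C1, both retinoic acid hydroxylases, were up at 314 μM Disperse Blue 14, and CYP26C1 also at 40 μM Solvent Violet 47. CYP27C1, which makes the dehydroretinol form of vitamin A and in adult zebrafish shifts cone sensitivity to longer wavelengths, was up in the same treatment groups. CYP26A1, the retinoic acid hydroxylase that is itself a well-known retinoic acid target, was down at 1 μM Solvent Red 169. Over all comparisons the retinoic acid hydroxylases had 3 calls up and 1 down by edgeR, and DESeq2 made 8 calls.

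CYP26B1 had 102, 155 and 122 CPM in the embryos at 314 μM Disperse Blue 14, against 82.0, 57.0, 81.5 and 78.7 CPM in the controls. Every exposed embryo was above every control, and the log2 fold change was 0.80 ± 0.20 (SE, adjusted p = 0.0237). The call was lost in 2 of 19 fits that each left out 1 embryo, with an adjusted p of 0.154 without replicate 3 at 314 μM. At 133, 171 and 261.5 μM every embryo was also above every control (82.4 to 102 CPM) without passing the test, and at 209 μM the embryos had 51.3, 93.9 and 85.7 CPM.

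CYP26C1 had 27.4, 73.5 and 53.5 CPM at 314 μM Disperse Blue 14, against 44.5, 10.0, 16.4 and 19.8 CPM in the controls. The groups overlapped through the highest control, and the log2 fold change was 1.23 ± 0.38 (adjusted p = 0.0407). The call was lost in 11 of 19 fits without 1 embryo, up to an adjusted p of 0.217 without replicate 3 at 314 μM. With Solvent Violet 47 CYP26C1 had 58.3, 141 and 67.9 CPM at 40 μM, against 41.9 and 37.1 CPM in the controls. All 3 exposed embryos were above both controls (log2 fold change 1.15 ± 0.36, adjusted p = 0.0416), and the call was lost in 9 of 17 such fits (0.245 without control replicate 4). At 31.5 μM Solvent Violet 47 its levels of 66.5, 84.4 and 61.1 CPM were also above both controls without passing the test.

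CYP27C1 had 8.19, 24 and 14.7 CPM at 314 μM Disperse Blue 14, against 10.8, 6.36, 6.62 and 4.65 CPM in the controls. The lowest exposed embryo was below the highest control, and the log2 fold change was 1.18 ± 0.34 (adjusted p = 0.0340, and 0.222 without replicate 3 at 314 μM). CYP27C1 with 40 μM Solvent Violet 47 had 13.4, 56.3 and 27.4 CPM, against 10.3 and 7.05 CPM in the controls. The exposed embryos were all above the controls but spread widely among themselves, with a log2 fold change of 1.87 ± 0.50 (3.66-fold, adjusted p = 0.0208). Without replicate 3 at 40 μM, the highest embryo, the log2 fold change was 1.18, and the call was lost in 3 of 17 fits without 1 embryo (0.197 without control replicate 4). Against the uneven Solvent Red 169 controls given above, the exposed embryos had 1.84 to 9.40 CPM and no group was a DEG by edgeR with all libraries. The log2 fold changes of CYP27C1 with Solvent Red 169 lay between −1.90 and −0.77 with all controls and between −0.07 and 1.07 without control replicates 1 and 2, so the direction turned at 4 of the 5 concentrations.

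CYP26A1 had 17.0, 17.9 and 17.1 CPM at 1 μM Solvent Red 169, against 38.4, 37.5, 22.8 and 23.3 CPM in the controls. The exposed embryos lay close together and below every control, at a log2 fold change of −0.83 ± 0.19 (adjusted p = 0.0404). The higher pair of control levels came from the replicates 1 and 2 that stood apart, and without both the log2 fold change was −0.42 (adjusted p = 0.314). The call was lost in 12 of 19 fits without 1 embryo. DESeq2, with all controls, called it down at 1, 5 and 50 μM Solvent Red 169. With Solvent Violet 47 CYP26A1 had 17.7 and 17.6 CPM in the controls, 17.6 to 26.9 CPM at 12 μM and 22.7 to 29.3 CPM at 40 μM. It was no DEG there by edgeR with all libraries. DESeq2 called it up at 31.5 and 40 μM (log2 fold change 0.70 and 0.59, adjusted p = 0.0187 and 0.0387).

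Of the other retinoid genes, 12 of 24 listed symbols were in the table and all 12 were tested with Disperse Blue 14 and Solvent Violet 47. None was up and 3 were down at 314 μM Disperse Blue 14. RBP4, the plasma retinol carrier, had 125 ± 32.5 CPM, against 517 ± 288 CPM in the controls (SD, n = 3 and 4; log2 fold change −2.01). rbp7a, a cellular retinol binding protein gene, was down at 171 μM (−1.45), 261.5 μM (−1.52) and 314 μM (−1.49), and lratb.1, a retinol esterification gene, at 314 μM (−0.76). Its paralog lratb.2 was down at 45 μM Disperse Red 9 (−1.58), with Solvent Yellow 33 at 10.5 μM (−2.47), 12 μM (−2.61) and 13.5 μM (−2.54) and at 31.5 and 40 μM Solvent Violet 47 (−2.40 and −3.12). The median log2 fold change of the 12 genes was −0.35 at 314 μM Disperse Blue 14 and 0.07 at 40 μM Solvent Violet 47, beside −0.01 and 0.04 over all genes.

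CYP24A1 is the hydroxylase that inactivates vitamin D and a classic target of its receptor. It was the member with the most calls with all libraries in the fits, up at 3 concentrations of Disperse Blue 14 and at 40 μM Solvent Violet 47. Without replicate 3 at 12 μM Solvent Yellow 33, CYP4V2 (ENSDARG00000062132) had the most. CYP2R1, the liver hydroxylase of the first activating step, was down at 314 μM Disperse Blue 14. CYP27B1, the enzyme of the last activating step, was a DEG nowhere with all libraries and averaged 0.444 ± 0.237 CPM in the controls (SD, n = 18). Its log2 fold changes in those fits lay between −1.49 and 0.68. Without Disperse Blue 14 control replicate 1, CYP27B1 was down at 314 μM (−1.83, adjusted p = 0.0383).

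With Disperse Blue 14 CYP24A1 had 2.78, 1.64, 1.09 and 1.04 CPM in the controls, 3.71, 2.09 and 2.63 CPM at 133 μM, and 6.24, 6.03 and 3.69 CPM at 171 μM. It had 8.08, 3.90 and 3.99 CPM at 209 μM, 3.93, 4.82 and 6.52 CPM at 261.5 μM, and 5.58, 4.13 and 3.96 CPM at 314 μM. From 171 μM upward every exposed embryo was above every control, and the levels did not order by concentration. The log2 fold change was 1.73 ± 0.36 at 171 μM (3.32-fold, adjusted p = 0.0303), 1.65 ± 0.36 at 261.5 μM (0.0326) and 1.51 ± 0.36 at 314 μM (0.0204). At 209 μM it was 1.72 and passed the test only in DESeq2 (adjusted p = 0.00103). The 3 calls were lost in 5, 6 and 1 of 19 fits without 1 embryo, up to adjusted p-values of 0.195 without replicate 2 at 171 μM, 0.195 without replicate 4 at 261.5 μM and 0.0883 without replicate 3 at 314 μM. Replicate 3 at 314 μM mattered for the whole treatment group: without it no member was a DEG at 314 μM and 0.436% of all genes were, while CYP24A1 remained a DEG at 171 and 261.5 μM.

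CYP24A1 with 40 μM Solvent Violet 47 had 3.45, 4.84 and 4.04 CPM, against 0.927 and 1.61 CPM in the controls. The groups did not overlap (log2 fold change 1.66 ± 0.53, adjusted p = 0.0453), and the call was lost in 10 of 17 fits without 1 embryo (0.315 without control replicate 3). At 12 to 23 μM the embryos stood at 0.626 to 1.33 CPM. Of the 3 embryos at 31.5 μM, 1 had 0.657 CPM and the others 2.61 and 2.85 CPM. With Solvent Red 169 CYP24A1 had 0.654 to 1.73 CPM in the 15 exposed embryos, against 5.99, 5.15, 1.62 and 0.876 CPM in the controls. It was no DEG by edgeR there with all libraries, DESeq2 called it down at 1, 5, 35.6 and 50 μM, and the high pair came from control replicates 1 and 2. Without that pair the log2 fold changes of CYP24A1 lay between −0.60 and −0.09, beside −2.06 to −1.55 with all controls. With Solvent Yellow 33 it was up at 13.5 μM in edgeR only when replicate 3 at 12 μM was left out (3.21 ± 0.780 CPM, against 1.53 ± 0.400 CPM in controls, n = 3 and 4, log2 fold change 1.06, adjusted p = 0.0179).

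CYP2R1 had 1.29, 0.841 and 1.27 CPM at 314 μM Disperse Blue 14, against 1.72, 6.23, 4.19 and 5.63 CPM in the controls. The exposed embryos were below all controls, of which replicate 1 was low, and the log2 fold change was −1.93 ± 0.40 (adjusted p = 0.0133, and 0.0946 without replicate 3 at 314 μM). At 133 to 261.5 μM its levels of 0.764 to 1.94 CPM gave log2 fold changes of −1.72, −1.59, −1.63 and −1.39 that did not pass the test. DESeq2 called all 5 concentrations. At 13.5 μM Solvent Yellow 33, edgeR called CYP2R1 down when replicate 3 at 12 μM was left out. It had 1.43 ± 0.331 CPM there, against 3.12 ± 0.534 CPM in controls (n = 3 and 4, log2 fold change −1.14, adjusted p = 0.0367).

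**Figure D3:**
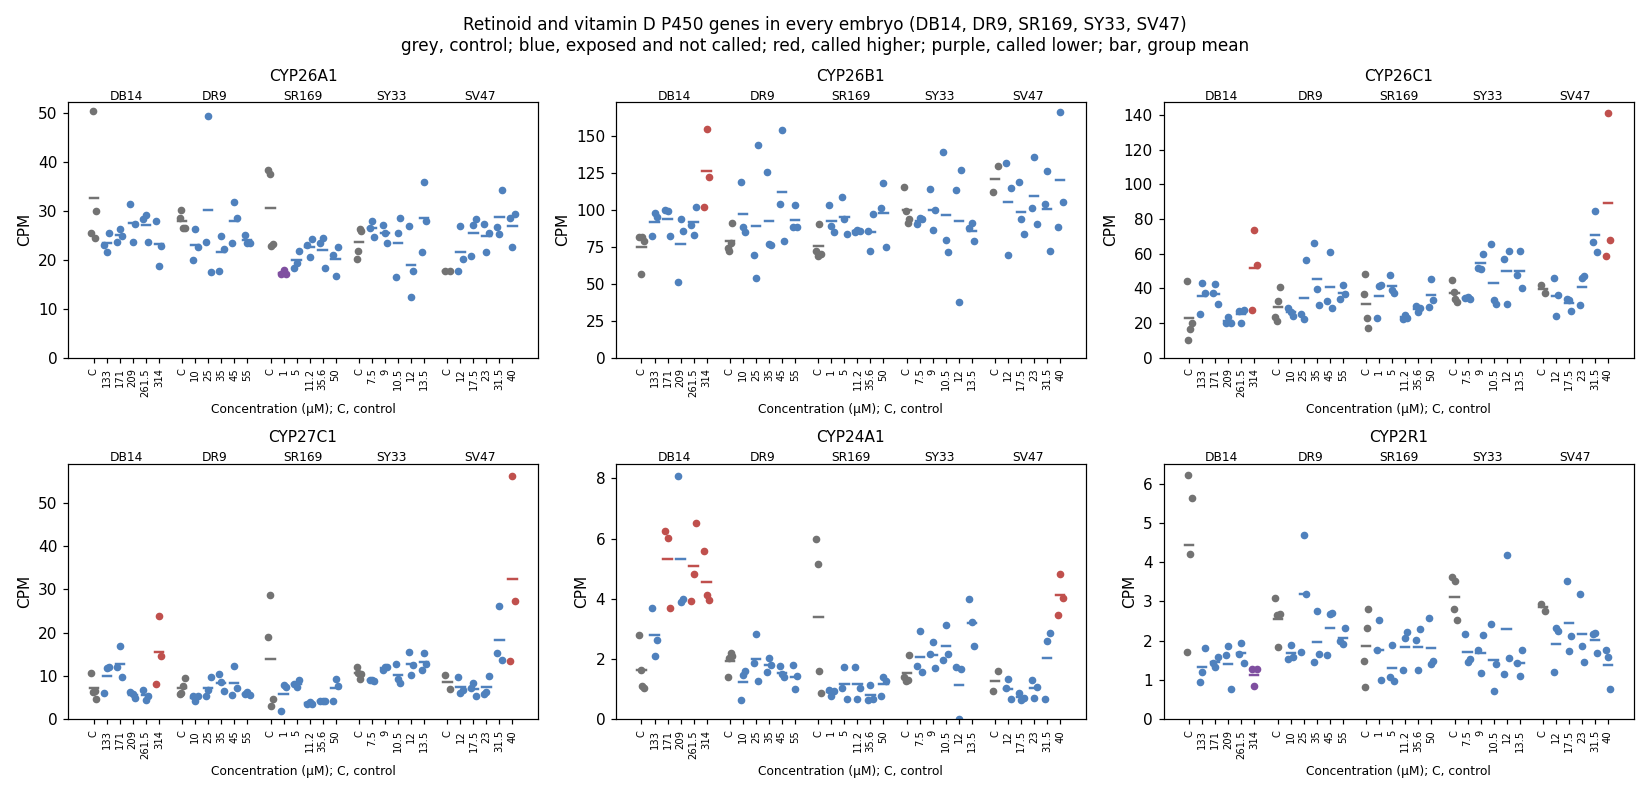
Level (CPM) in every embryo of CYP26A1, CYP26B1, CYP26C1, CYP27C1, CYP24A1 and CYP2R1, by dye (DB14, Disperse Blue 14; DR9, Disperse Red 9; SR169, Solvent Red 169; SY33, Solvent Yellow 33; SV47, Solvent Violet 47) and concentration (μM; C, control). Points are embryos, bars are group means, and red and purple points are treatment groups called up and down. CYP24A1 stands at 3.69 CPM or more in all embryos at 171 to 314 μM Disperse Blue 14, and its Solvent Red 169 controls split into a high and a low pair.

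Among the 14 sterol and bile acid enzymes 2 were DEGs by edgeR with all libraries (1 call up, 1 down), beside 33.9% of all genes called at least once. cyp46a1.4, a homolog of the mammalian brain cholesterol hydroxylase, had 4.14, 4.27 and 5.95 CPM at 261.5 μM Disperse Blue 14, against 2.34, 2.28, 3.02 and 2.47 CPM in the controls. The groups did not overlap (log2 fold change 0.93 ± 0.22, adjusted p = 0.0487), and the call was lost in 16 of 19 fits without 1 embryo (0.319 without replicate 4 at 261.5 μM). The embryos at the other 4 concentrations were also above every control, at 3.17 to 6.11 CPM. Its neighbour cyp46a1.3 was up with Solvent Yellow 33 when replicate 3 at 12 μM was left out. Its log2 fold changes there were 1.16 at 12 μM and 0.84 at 13.5 μM (adjusted p = 0.0113 and 0.0243). DESeq2 called cyp46a1.3 up at 35.6 μM Solvent Red 169 (1.03, adjusted p = 0.0258).

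CYP8B1 (ENSDARG00000053068), 1 of 3 copies of the sterol hydroxylase that directs bile acid synthesis to cholic acid, had 0.508, 0.472 and 0.475 CPM at 31.5 μM Solvent Violet 47, against 1.51 and 1.72 CPM in the controls. The exposed embryos were nearly equal and far below both controls (log2 fold change −1.74 ± 0.47, adjusted p = 0.0392, and 0.270 without control replicate 4). Its levels at 12, 17.5, 23 and 40 μM were 0.818 to 1.70, 0.813 to 0.856, 0.418 to 0.784 and 0.263 to 0.922 CPM. With Disperse Red 9 it had 0.297, 0.358 and 0.773 CPM at 45 μM, against 1.40, 1.61, 1.79 and 1.30 CPM in the controls, which passed in DESeq2 (log2 fold change −1.68, adjusted p = 0.00235) but not in edgeR with all libraries. At 13.5 μM Solvent Yellow 33 edgeR called it down when replicate 3 at 12 μM was left out (−1.69, adjusted p = 0.0237).

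The other CYP8B1 copies were near the limit of detection. CYP8B1 (ENSDARG00000097559) was at 0 in all 3 embryos at 7.5 μM Solvent Yellow 33, against 0.488, 0.353, 0.597 and 0.417 CPM in the controls. It was down at 7.5, 10.5 and 13.5 μM when replicate 3 at 12 μM was left out (adjusted p = 0.0273, 0.0329 and 0.0388). In that fit CYP8B1 (ENSDARG00000097556) was down at 10.5 μM (adjusted p = 0.0162). Near-identical copies can share reads, so the split between copies is uncertain. CYP7A1, the rate-limiting enzyme of bile acid synthesis, averaged 0.273 ± 0.119 CPM in the controls, and neither it, cyp39a1 nor any of the 6 CYP27A1 and cyp27a rows was a DEG by edgeR with all libraries. Without Solvent Red 169 control replicate 3, cyp27a2 was down at 1, 11.2, 35.6 and 50 μM, in a fit that kept control replicates 1 and 2. For these sterol enzymes as a group, 42 of 345 tests had an unadjusted p under 0.05 and DESeq2 made 11 calls.

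None of the 5 steroid hormone enzymes, of which 3 were tested, was a DEG in edgeR with all libraries, beside 33.9% of all genes called at least once. There 15 of 75 tests had an unadjusted p under 0.05, and DESeq2 made 3 calls. CYP17A1, the hydroxylase and lyase of androgen and cortisol synthesis, averaged 31.2 ± 7.61 CPM in the controls, with log2 fold changes between −0.71 and 0.57. cyp11c1, the enzyme of the last step to cortisol, averaged 0.320 ± 0.178 CPM. The tested copy of the side-chain cleavage enzyme, CYP11A1 (ENSDARG00000092696), was below all 4 controls in every embryo of all 5 Solvent Red 169 groups, at log2 fold changes between −1.75 and −1.06, with a lowest adjusted p of 0.0644 in edgeR and DESeq2 calls at 1, 5 and 11.2 μM. The summed interrenal markers (3 genes of 4 symbols, 2 tested, 0 up, 0 down) were 5.96 to 9.03 CPM at 1 μM, against 9.72 to 17.1 CPM in the controls. At 5, 11.2, 35.6 and 50 μM the marker sums overlapped the controls, at 7.15 to 11.4, 7.60 to 10.3, 10.2 to 11.9 and 8.64 to 11.7 CPM. The part of these markers in the CYP11A1 difference was not tested. Without control replicates 1 and 2 these log2 fold changes of CYP11A1 (ENSDARG00000092696) lay between −1.28 and −0.59, with a lowest adjusted p of 0.499, and the embryos were still below control replicates 3 and 4. Without control replicate 3 it was down at 1, 5, 11.2 and 35.6 μM, and without control replicate 4 at 1 and 5 μM. CYP17A1 was up with Solvent Red 169 at 5 μM without control replicate 3 (log2 fold change 0.59, adjusted p = 0.0218) and at 1 and 5 μM without control replicate 4 (0.66 and 0.70, adjusted p = 0.0280 and 0.0228). Both of these fits kept control replicates 1 and 2. Without those 2 embryos the log2 fold change of CYP17A1 at 1 μM was 0.34 (adjusted p = 0.461). Without replicate 3 at 12 μM, CYP17A1 was down at 13.5 μM Solvent Yellow 33 (22.9 ± 0.588 CPM, against 37.7 ± 0.523 CPM in controls, n = 3 and 4, log2 fold change −0.74, adjusted p = 0.0436). Of 13 related steroid genes in the table, HSD17B10 (log2 fold change 0.74) and HSD3B7 (0.86) were up at 40 μM Solvent Violet 47, STAR (0.76), the cholesterol importer of steroidogenic mitochondria, at 31.5 μM, and hsd20b2 (0.95) at 314 μM Disperse Blue 14. HSD17B3 was down at 5 μM Solvent Red 169, where all 3 embryos were at 0, against 0.630 ± 0.364 CPM in the controls (adjusted p = 0.0431, and 0.130 without control replicates 1 and 2).

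Of the 12 fatty acid and eicosanoid genes 11 were tested and 2 were DEGs by edgeR with all libraries, and all 5 calls were down. Of all genes, 33.9% were called at least once in either direction. DESeq2 made 18 calls in this group. Those of CYP4V2 (ENSDARG00000061585) and that of cyp2p7 at 314 μM Disperse Blue 14 were up, and the others down. CYP4V2 (ENSDARG00000062132), a fatty acid hydroxylase whose human counterpart is mutated in a crystalline retinal dystrophy, was down with 3 dyes. At 314 μM Disperse Blue 14 it had 5.99, 7.71 and 4.32 CPM, against 11.8, 19.8, 11.6 and 18.3 CPM in the controls. At 45 μM Disperse Red 9 it had 5.58, 1.53 and 7.84 CPM, against 14.8, 19.6, 16.6 and 16.4 CPM. At 40 μM Solvent Violet 47 it had 5.97, 3.11 and 3.34 CPM, against 12.9 and 16.9 CPM. In each of these treatment groups all exposed embryos were below all controls. The log2 fold changes were −1.31 ± 0.37, −1.81 ± 0.40 and −1.88 ± 0.53 (adjusted p = 0.0305, 0.0343 and 0.0270), and the calls were lost in 3 of 19, 9 of 19 and 4 of 17 fits without 1 embryo. The highest adjusted p-values of those fits were 0.111 without replicate 3 at 314 μM, 0.134 without replicate 2 at 45 μM and 0.177 without control replicate 4.

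With Solvent Yellow 33 the same CYP4V2 (ENSDARG00000062132) had 9.32 to 15.6 CPM in the exposed embryos other than replicate 3 at 12 μM, which was at 0, against 28.0, 24.3, 27.8 and 19.9 CPM in the controls. No concentration passed the edgeR test with that embryo in the fit. Without it, CYP4V2 was down at all 5 concentrations from 7.5 to 13.5 μM (log2 fold change −0.86, −1.05, −0.84, −0.89 and −1.20, with adjusted p-values of 0.00348, 0.000328, 0.00151, 0.00339 and 6.23e-05). With Solvent Red 169 the exposed embryos had 11 to 21.1 CPM, around those of control replicates 3 and 4. The log2 fold changes lay between 0.55 and 0.92 with all controls and between −0.29 and 0.09 without control replicates 1 and 2. The second copy, CYP4V2 (ENSDARG00000061585), averaged 2.59 ± 1.24 CPM in all controls and was a DEG nowhere by edgeR.

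cyp2n13 belongs to a fish subfamily close to CYP2J, the arachidonic acid epoxygenases of mammals. At 12 μM Solvent Yellow 33 it had 0.0556, 0 and 0.0401 CPM, against 1.08, 0.682, 1.38 and 0.909 CPM in the controls. The exposed embryos held 3 counts in all and the controls 128, a ratio of 0.0469 with a 95% counting interval of 0.00954 to 0.140 (exact binomial, counting error only; adjusted p = 0.0319). The 0 is from replicate 3, without which the ratio was 0.0498 and the adjusted p was 0.0113, and the call was lost in 5 of 19 fits without 1 embryo (up to 0.0906 without control replicate 3). At 7.5 μM the embryos had 0.657, 0.222 and 0.130 CPM, and those at 9 μM, 10.5 μM and 13.5 μM had 0 to 0.391 CPM, all below the lowest control. At 9, 10.5 and 13.5 μM edgeR called cyp2n13 down when replicate 3 at 12 μM was left out (adjusted p = 0.0254, 0.0329 and 0.0199), but not with all libraries. DESeq2 called it down at these concentrations with all libraries (adjusted p = 0.00752, 0.0167 and 0.00767).

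With Solvent Violet 47 at 40 μM cyp2n13 had 0.180, 0.0375 and 0.190 CPM, against 1.05 and 1.07 CPM in the controls. This was the only call that held in all 17 fits without 1 embryo (log2 fold change −2.93 ± 0.63, adjusted p = 0.00590, at most 0.0449). In the fit of this treatment group with its 2 controls alone, cyp2n13 was not a DEG (adjusted p = 0.0529). Its neighbour in the gene order, cyp2ad6, was a DEG in edgeR only without replicate 3 at 12 μM Solvent Yellow 33 (13.5 μM, log2 fold change −0.99). The related cyp2p6 was down with Solvent Yellow 33 at every concentration except 12 μM when replicate 3 at 12 μM was left out, with 3.66 ± 0.760 CPM at 13.5 μM, against 7.57 ± 0.572 CPM in the controls (n = 3 and 4, log2 fold change −1.06, adjusted p = 0.000459). Of 10 other eicosanoid genes, ptgdsb.1 (log2 fold change 1.48) and EPHX2 (0.65), a prostaglandin synthase gene and the soluble epoxide hydrolase, were up at 40 μM Solvent Violet 47 and EPHX4 (−1.17) was down. At 31.5 μM ptgdsb.1 (1.31) and ptgs1 (1.00), a cyclooxygenase gene, were up, and LTA4H (−0.63) was down at 314 μM Disperse Blue 14. With Solvent Red 169 ptgdsb.1 was down at 1 μM (−1.28) and EPHX4 up at 50 μM (1.1). Without control replicates 1 and 2 their log2 fold changes were −0.37 and 0.69 (adjusted p = 0.567 and 0.282).

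Of 24 other family 2 genes 21 were tested and 3 were DEGs by edgeR with all libraries, all 5 calls up. Of all genes, 33.9% were called at least once in either direction. DESeq2 made 17 calls in this group. It called cyp2x10.1, cyp2aa3 and cyp2aa8 down at 171 μM Disperse Blue 14. It also called cyp2ad6 down at 12 μM Solvent Yellow 33 and cyp2k19 at 40 μM Solvent Violet 47, and the others were up. Without replicate 3 at 12 μM Solvent Yellow 33, edgeR called cyp2x9 down at 9 and 13.5 μM (log2 fold change −1.69 and −2.08). There cyp2x7 was up at 12 μM (0.79). In RefSeq's zebrafish gene order 57 of the 68 members were found by a unique symbol, and 37 of them lay in 8 runs of neighbours at most 2 genes apart, where near-identical copies could share reads. The longest runs held 8 cyp2aa and 8 cyp2k genes. cyp2aa9 is in the cyp2aa run. It had 95.3, 64.8 and 107 CPM at 45 μM Disperse Red 9, against 55.9, 45.6, 48.9 and 34.3 CPM in the controls. At 40 μM Solvent Violet 47 cyp2aa9 had 93.9, 51.5 and 122 CPM, against 40.6 and 47.4 CPM in the controls. Both treatment groups lay above their controls, the lowest Solvent Violet 47 embryo by a small margin, with log2 fold changes of 0.90 ± 0.21 (adjusted p = 0.0419) and 0.98 ± 0.30 (0.0413). Fits without 1 embryo lost the calls in 15 of 19 and 9 of 17 cases, up to 0.147 without replicate 1 at 45 μM and 0.253 without control replicate 3.

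cyp2x7 had 26.7, 23.9 and 23.4 CPM at 45 μM Disperse Red 9, against 14.5, 14.7, 12.6 and 10.1 CPM in the controls, and 17.3, 20.4 and 38.1 CPM at 40 μM Solvent Violet 47, against 9.36 and 11.3 CPM. Neither pair of groups overlapped (log2 fold change 0.88 ± 0.19, adjusted p = 0.0343, and 1.25 ± 0.39, adjusted p = 0.0402). Its neighbour cyp2x6 had 2.85, 1.88 and 2.88 CPM at 40 μM Solvent Violet 47, against 1.33 and 1.00 CPM, again without overlap (1.08 ± 0.34, adjusted p = 0.0419). Fits without 1 embryo lost the cyp2x7 calls in 8 of 19 (0.164 without replicate 2 at 45 μM) and 7 of 17 cases (0.246 without control replicate 3), and the cyp2x6 call in 8 of 17 (0.294 without control replicate 4). cyp2y3, cyp2ad3 and the other 7 tested cyp2aa genes were not DEGs against control by edgeR with all libraries. DESeq2 called cyp2aa3 (log2 fold change −0.92, adjusted p = 0.0115) and cyp2aa8 (−1.03, 0.0159) down at 171 μM Disperse Blue 14. It called cyp2aa1 up at 55 μM Disperse Red 9 (0.64, 0.00744), as did edgeR without replicate 3 at 25 μM. Without Solvent Red 169 control replicate 3, edgeR called cyp2ad3 up at 35.6 and 50 μM and cyp2y3 up at 35.6 μM.

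Family 3 had 5 members, of which 3 were DEGs by edgeR with all libraries, all up, beside 33.9% of all genes called at least once in either direction. DESeq2 made 13 calls, all up except that of cyp3a65 at 5 μM Solvent Red 169 (log2 fold change −1.34, adjusted p = 0.0228). cyp3a65, the zebrafish member of the drug-metabolising subfamily 3A, had 3.05, 1.75 and 2 CPM at 314 μM Disperse Blue 14, against 1.19, 1.46, 0.490 and 0.897 CPM in the controls. At 40 μM Solvent Violet 47 cyp3a65 had 2.19, 2.70 and 1.49 CPM, against 0.927 and 0.788 CPM in the controls. The groups did not overlap with either dye (log2 fold change 1.20 ± 0.32, adjusted p = 0.0267, and 1.27 ± 0.38, adjusted p = 0.0340), and the calls were lost in 3 of 19 and 3 of 17 fits without 1 embryo (0.0899 without replicate 3 at 314 μM and 0.227 without control replicate 4). With Solvent Red 169 the exposed embryos had 0.341 to 1.03 CPM and the controls 1.57, 2.56, 0.872 and 1.08 CPM. No group was a DEG by edgeR with all libraries. The log2 fold changes of cyp3a65 there lay between −1.35 and −1.07 with all controls and between −0.71 and −0.43 without control replicates 1 and 2.

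The cyp3c genes, which lie next to each other, gave 3 calls with Disperse Blue 14. cyp3c3 had 6, 5.05 and 7.48 CPM at 261.5 μM and 6.05, 6.55 and 5.63 CPM at 314 μM, against 4.19, 1.82, 3.19 and 2.21 CPM in the controls. cyp3c1 had 118, 109 and 103 CPM at 314 μM, against 80.1, 40.7, 78.7 and 68.6 CPM. Exposed embryos were above all controls in each case, with log2 fold changes of 1.13 ± 0.27 (cyp3c3 at both concentrations, adjusted p = 0.0484 and 0.0204) and 0.75 ± 0.21 (cyp3c1, 0.0305). Fits without 1 embryo lost the cyp3c3 calls in 17 and 2 of 19 cases and the cyp3c1 call in 4 of 19, up to adjusted p-values of 0.291 without replicate 4 at 261.5 μM, and 0.118 and 0.141 without replicate 3 at 314 μM. CYP20A1, the orphan, was a DEG nowhere with all libraries (log2 fold change −0.58 to 0.45, 8 of 25 tests at an unadjusted p under 0.05, 0 DESeq2 calls). Without Solvent Red 169 control replicate 3 it was down at 1, 5 and 11.2 μM, and without control replicate 4 at 1 and 5 μM. Without control replicates 1 and 2 its log2 fold change at 1 μM was −0.12 (adjusted p = 0.810).

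**Figure D4:**
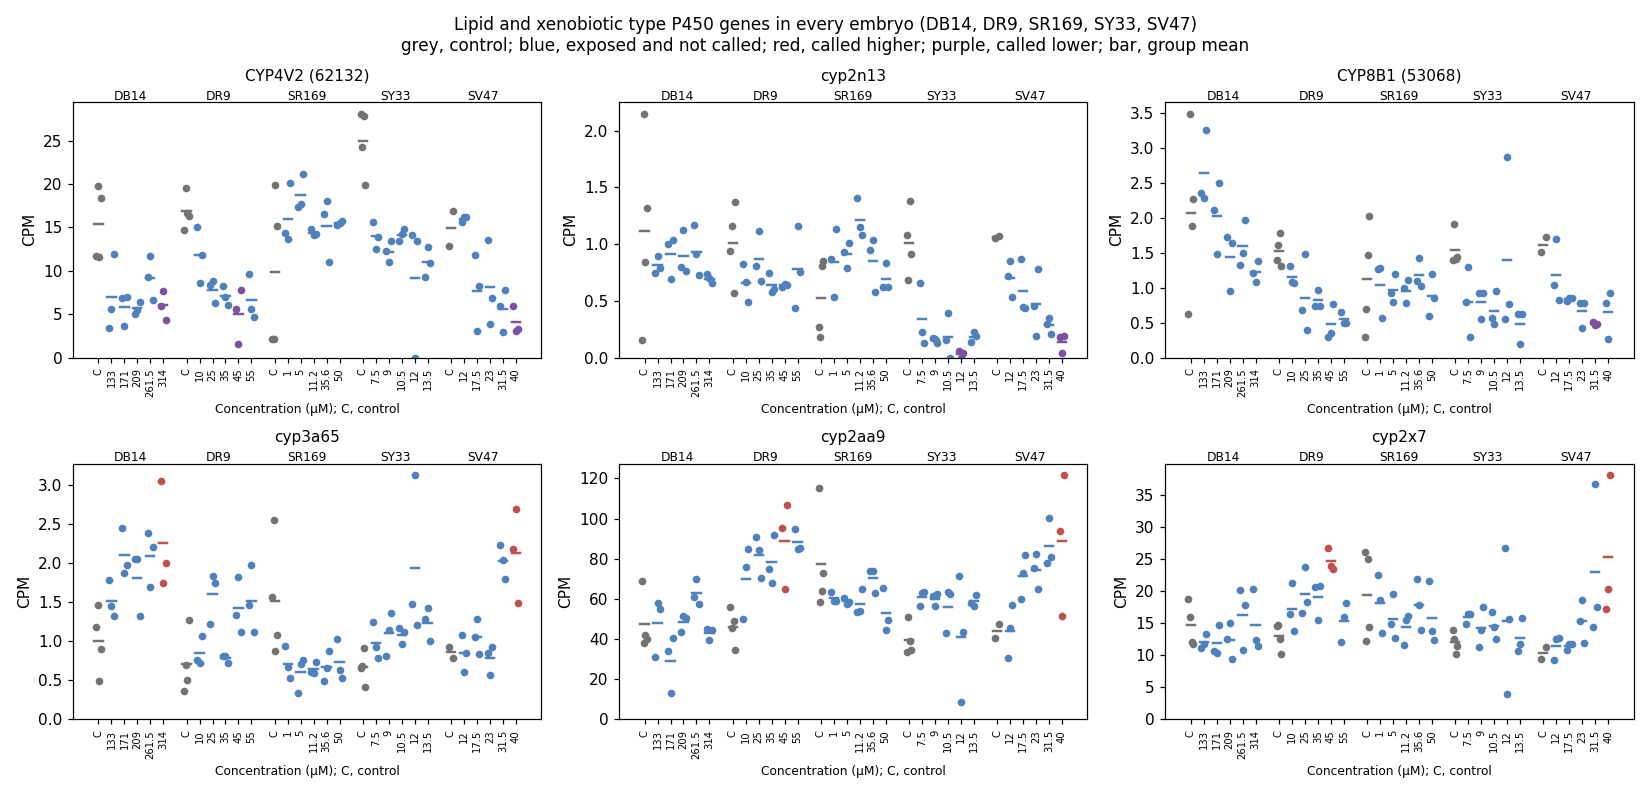
Level (CPM) in every embryo of CYP4V2 (ENSDARG00000062132), cyp2n13, CYP8B1 (ENSDARG00000053068), cyp3a65, cyp2aa9 and cyp2x7, by dye and concentration (μM; C, control), with abbreviations, points, bars and colours as in the plot of retinoid and vitamin D genes. The cyp2n13 level is at most 0.657 CPM in every embryo exposed to Solvent Yellow 33, and the 12 μM embryo at 0 for CYP4V2 is the shallow library.

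Dose trends were tested among the 15 exposed embryos of a dye, without the controls, as a slope on concentration with an adjusted p under 0.05. Only Solvent Violet 47 gave any, with 15 of 60 members (12 up, 3 down), beside 27% of all genes, which is near the same share. For Disperse Blue 14, Solvent Yellow 33, Disperse Red 9 and Solvent Red 169 edgeR called 0 members, where 0%, 0%, 0.0113% and 0.00567% of all genes were called and 9, 2, 6 and 4 members had an unadjusted p under 0.05. The trend was not run in DESeq2.

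Scaled to the span of 12 to 40 μM Solvent Violet 47, the largest rises were those of CYP27C1 (log2 change 2.30 ± 0.38, SE, adjusted p = 0.000349), CYP24A1 (2.26 ± 0.41, 0.000661) and CYP26C1 (1.54 ± 0.27, 0.000604). cyp3a65 (1.49 ± 0.33), cyp2x7 (1.30 ± 0.29), cyp2aa8 (1.03 ± 0.27) and cyp46a1.4 (0.90 ± 0.29) followed, and cyp2aa9, cyp2x6, cyp2aa4, cyp2p10 and cyp2aa2 rose by 0.56 to 0.83. The members that fell were cyp2n13 (−2.26 ± 0.51, adjusted p = 0.00347), CYP4V2 (ENSDARG00000062132; −1.78 ± 0.43, 0.00536) and cyp2ad3 (−0.58 ± 0.20, 0.0420). The rises of CYP27C1, CYP24A1 and CYP26C1 lay between 23 and 40 μM, since embryos at 12 to 23 μM had 5.46 to 10.0, 0.626 to 1.33 and 23.9 to 46.8 CPM. These embryos are also those compared with the 2 controls, so the trend is not a second sample of the 40 μM result.

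**Figure D5:**
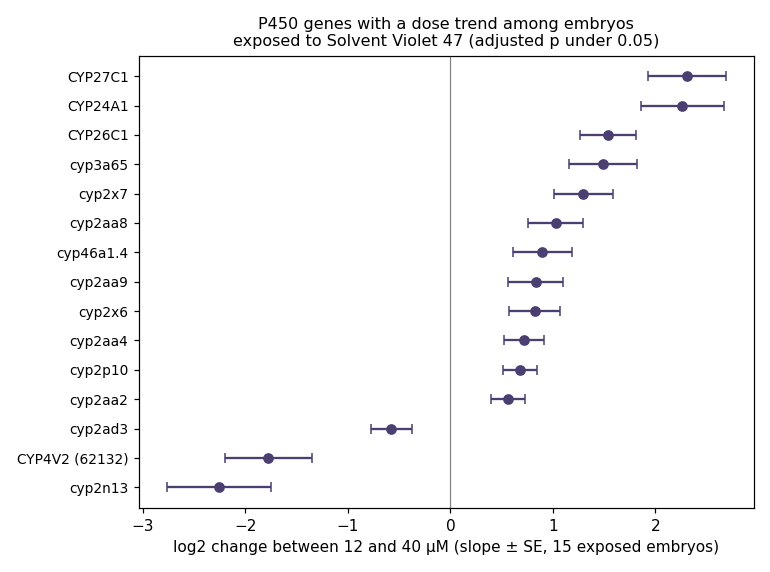
log2 change between 12 and 40 μM Solvent Violet 47 (slope scaled to that span, bars are SE) for the 15 members with a dose trend among the 15 exposed embryos. CYP27C1 (2.30) and CYP24A1 (2.26) are highest and cyp2n13 (−2.26) is lowest.

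At 314 μM Disperse Blue 14 and 40 μM Solvent Violet 47, which have separate controls, 9 members each were DEGs of 62 tested with both. Of these, 5 were DEGs in the same direction, or 55.6% of each list, and 0 in opposite directions. They were CYP24A1, CYP26C1, CYP27C1 and cyp3a65, all up, and CYP4V2 (ENSDARG00000062132), down. Of all 17719 genes tested with both dyes, 2786 and 2674 were DEGs, 320 in the same direction and 66 in opposite directions, or 11.5% and 12% of the lists. Without replicate 3 at 314 μM, or without Solvent Violet 47 control replicate 3 or 4, 0 members were shared, while 29, 145 and 110 of all genes were shared in direction and 2, 26 and 17 opposite. The counts are a description, and the concentrations are not matched.

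Of 10 redox partner genes, fdx1, the ferredoxin of mitochondrial P450 enzymes, was down at 314 μM Disperse Blue 14 (18.8 ± 5.31 CPM, against 35.0 ± 10.1 CPM in controls, SD, n = 3 and 4, log2 fold change −0.86). CYB5A, a cytochrome b5 gene, was up at 1, 5 and 50 μM Solvent Red 169 (0.75, 0.83 and 0.79), and without control replicates 1 and 2 the log2 fold changes were 0.62, 0.70 and 0.65 (adjusted p = 0.254, 0.102 and 0.198). Of 8 tested genes for xenobiotic and lipid nuclear receptors, nr1h5 (1.42) and NR1H3 (0.80) were up and PPARA (−2.01) and NR1H4 (−1.36) down at 314 μM Disperse Blue 14. NR1H4, the bile acid receptor, was also down at 45 μM Disperse Red 9 (−1.24) and 40 μM Solvent Violet 47 (−1.52).

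Tissue marker genes were DEGs in some treatment groups with P450 calls, and their part in the P450 results was not tested. No tested marker gene was a DEG at 171 or 261.5 μM Disperse Blue 14 or 1 μM Solvent Red 169, where members were called. Some were DEGs where no member was. Intestine markers were down at 9 μM (1), 10.5 μM (3) and 13.5 μM (1) Solvent Yellow 33. At 55 μM Disperse Red 9, 1 intestine marker was down. An erythrocyte gene was down at 5 μM Solvent Red 169. At 314 μM Disperse Blue 14 the summed liver markers (5 genes of 8 symbols, 3 tested, 0 up, 1 down) were 89.4 to 173 CPM, against 175 to 401 CPM in controls, the 3 erythrocyte genes (0 up, 1 down) 203 to 384 CPM, against 511 to 2063 CPM, the 2 muscle genes (0 up, 1 down) 2638 to 4747 CPM, against 5204 to 16534 CPM, and the 2 brain genes (1 up, 0 down) 1150 to 1760 CPM, against 490 to 1214 CPM. The exocrine pancreas markers (3 genes of 7 symbols, 1 tested, 0 up, 1 down) were 0.175 to 0.799 CPM, against 0.657 to 5.61 CPM. At 40 μM Solvent Violet 47 the 2 brain genes (0 up, 1 down) were 636 to 1034 CPM, against 1597 to 1688 CPM, and the intestine markers (5 genes of 6 symbols, 4 tested, 1 up, 2 down) 132 to 192 CPM, against 112 to 117 CPM. There the hatching gland gene (1 up) was 170 to 497 CPM, against 62.4 to 105 CPM, and the 6 yolk syncytial layer genes (0 up, 1 down) summed to 16629 to 26134 CPM, against 16782 to 16828 CPM. At 31.5 μM the brain genes (0 up, 1 down) were 597 to 1093 CPM, against 1597 to 1688 CPM, the intestine markers (0 up, 2 down) 120 to 181 CPM, against 112 to 117 CPM, and the interrenal markers (1 up, 0 down of 2) 12.6 to 17.4 CPM, against 8.44 to 8.52 CPM. At 45 μM Disperse Red 9 the intestine markers (0 up, 1 down of 4) were 125 to 184 CPM, against 139 to 157 CPM. The markers TTR (liver), ela2l (exocrine pancreas), FABP6 (intestine) and mc2r (interrenal) were near 0 in controls, with means of 0.0501, 0.0109, 0.00737 and 0.0171 CPM. At 12 μM Solvent Yellow 33 the 2 muscle genes (0 up, 0 down) were 2783 to 30449 CPM, against 4162 to 5650 CPM, and the intestine markers (0 up, 1 down of 4) 73.1 to 110 CPM, against 114 to 128 CPM.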

How the data were processed

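Poly-A RNA-seq libraries were made from 93 single embryos (75 exposed, 18 controls) of 5 dyes. According to the submitters' processing notes and the study's methods, the authors trimmed reads with Trim Galore 0.6.5 and quantified them with Salmon 1.1.0 (genome build GRCz11), summarised them to genes and used edgeR 3.28.1. The deposited table holds estimated counts per gene, with 62.2% of values whole, and they were rounded here to whole numbers. The authors' tables of log2 CPM per dye were not used. Gene lengths were not used, so CPM compares embryos and not genes.

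Each dye was fitted alone in edgeR 4.0.16 (R 4.3.3): low-count filter by filterByExpr, TMM factors, quasi-likelihood F tests of each treatment group against control with all 6 groups in the fit, and Benjamini-Hochberg adjustment over all genes tested. CPM used TMM factors over all 93 embryos and is shown for description. A member was a DEG at a fold change over 1.5 and an adjusted p under 0.05. The dose trend was a slope on concentration over the 15 exposed embryos. Alternatives were DESeq2 1.42.0, RLE size factors, no filter, a treatment group with its control alone, a replicate block, pooled controls of all dyes and leaving out each embryo. The code was tested on simulated data. Named members were those called in any comparison, with the others given by role, and related genes were named only where called in a comparison. The members, lists and tests were chosen with earlier results of these data known.

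Replicates are separate embryos. Of 4278 pairs of libraries, 0 held identical values, and the highest rank correlation was 0.994. Library totals of 9171265 to 48188027 counts mean that a level under 1 CPM rests on few counts. Intervals cover counting error only. Neighbouring genes came from RefSeq's gene order of another assembly than the authors used, for order only.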

Additional observations from a re-analysis of the deposited data

Results flagged for a closer look

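Within the Disperse Blue 14 controls, CYP26B1 in replicate 2 lay apart from the other embryos, with a gap of 0.869 of the group's range. It was the only one of 15 pairs of a called member and its 4 control embryos in which this happened, and chance gives about 1 in 20.

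Several members lay on opposite sides of the controls with different dyes, in the sense that all exposed embryos of a treatment group were on the other side from a treatment group with a call. The differences between dyes were not tested, and the share of all genes with such groups was not counted. Treatment groups of a dye share its controls, only 2 for Solvent Violet 47, so they are not separate observations. CYP24A1 and CYP26C1, called up at 40 μM Solvent Violet 47 and with Disperse Blue 14, had log2 fold changes of −0.78 and −0.35 at 17.5 μM Solvent Violet 47. CYP27C1, called up in the same groups, was at −0.58 at 10 μM Disperse Red 9 and −0.24 at 7.5 μM Solvent Yellow 33.

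cyp3a65, called up with Disperse Blue 14 and Solvent Violet 47, was at −1.35, −1.24 and −1.20 at 5, 11.2 and 35.6 μM Solvent Red 169, and at −0.71, −0.61 and −0.56 without the control replicates 1 and 2 that stood apart. cyp46a1.4, called up with Disperse Blue 14, was at −0.40 and −0.57 at 35.6 and 50 μM Solvent Red 169, and at −0.29 and −0.46 without those controls. CYP26A1, called down with Solvent Red 169, was at 0.51, 0.47, 0.69 and 0.57 at 17.5, 23, 31.5 and 40 μM Solvent Violet 47. cyp2n13, called down with Solvent Yellow 33 and Solvent Violet 47, was at 1.18 at 11.2 μM Solvent Red 169, and at 0.54 without those controls. The call of CYP26A1 rests on the same controls.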

How the results depend on the processing

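Of the 28 calls, none changed direction under any alternative. DESeq2 kept 28, RLE size factors 26, no filter on low counts 26 and pooled controls of all dyes 19. Fitting each treatment group with its control alone kept 1, that of CYP4V2 (ENSDARG00000062132) at 40 μM Solvent Violet 47. Leaving out 1 embryo kept 325 of 512 values of these calls. The number of distinct members called was 10 each for Disperse Blue 14 and Solvent Violet 47, 3 for Disperse Red 9, and 1 each for Solvent Yellow 33 and Solvent Red 169, where 15.8%, 15.4%, 1.55%, 3.01% and 7.56% of all genes were called at any concentration. DESeq2 gave 17 members called with Disperse Blue 14 (25.2% of all genes) and 12 with Solvent Violet 47 (20.1%). It gave 8 with Solvent Yellow 33 (10.1%), 7 with Solvent Red 169 (21.7%) and 7 with Disperse Red 9 (5.9%). Fitting each treatment group with its control alone gave 0 for Disperse Blue 14 (0% of all genes), 0 for Solvent Red 169 (0.0565%), 14 for Solvent Yellow 33 (13.9%) and 2 for Solvent Violet 47 (8.49%). Pooled controls gave 0 for Solvent Red 169 (0.0271%), 7 for Solvent Yellow 33 (13.7%) and 17 for Solvent Violet 47 (18.7%), and no filter gave 2 for Solvent Red 169 (6.23%). Without control replicates 1 and 2 together, an alternative chosen after seeing the data, Solvent Red 169 gave 0 (0.00559%). Why the counts moved was not tested.

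With 1 embryo left out, the number of members called moved, as did the share of all genes. For Disperse Blue 14 members called ranged from 1 without replicate 3 at 314 μM (1.19% of all genes) to 16 without control replicate 1 (23.5%). For Solvent Violet 47 the range was 1 without control replicate 3 or 4 (6.19% and 4.39%) to 11. The 11 came without replicate 1 at 40 μM (20.5%) or replicate 2 at 12 μM (17.6%). For Disperse Red 9 it was 0 (0.224% to 0.843%) to 6 without replicate 3 at 25 μM (4.93%). For Solvent Yellow 33 it was 0 (1.08% to 1.63%) to 13 without replicate 3 at 12 μM (12.8%). For Solvent Red 169 it was 0 (0.643% to 4.47%) to 15 without control replicate 3 (39.8%). The members with a dose trend ranged from 11 (without replicate 4 at 40 μM) to 16 (without replicate 4 at 31.5 μM) for Solvent Violet 47 and stayed at 0 for the other 4 dyes. The share of all genes with a trend is given only for the fit with all embryos, at 27% for Solvent Violet 47.

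The labels do not say whether the replicate numbers pair the embryos. Deviations of same-numbered embryos had a median correlation between −0.11 and 0.03 within a dye. Single pairs ran from −0.81 to 0.82, so these values cannot decide whether embryos were paired. A fit with the replicate block called 8 members each for Disperse Blue 14 and Solvent Violet 47, 3 for Solvent Red 169, 2 for Disperse Red 9 and 0 for Solvent Yellow 33 (8.77%, 16.7%, 6.6%, 0.94% and 1.33% of all genes), kept 19 of the 28 calls, and gave 12 members with a dose trend for Solvent Violet 47, beside 15 without the block. With 3 embryos in a treatment group and 2 controls for Solvent Violet 47, a member that passed no threshold is not shown to be unchanged.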
